A study of Mus musculus with 18 samples.

Results

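RNA sequencing of sorted mouse respiratory cells was used to describe 6 genes, Acoxl, Hkdc1, Lyz1, Mlc1, Sgpp2 and Alkal1, that were selected on their counts, high in the alveolar libraries against every other population. They are 6 of the 27179 Entrez genes in the count files, were matched there by gene ID, and all 6 were among the 17989 genes that passed the filter on low counts. Since the alveolar libraries were used to choose the genes, every value of these genes set against those libraries is given as a description and without a test. Tests of the 6 genes were kept to the 5 populations other than alveolar cells, although a gene chosen for being high in one population only could not be equally high in another.

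The mice were C57BL/6 animals, which the methods give as males of 8 to 12 weeks, with no other allele and no treatment in any group. Tracheas of mice 1 to 3 gave basal stem cells (BSCs, sorted as NGFR+) and non-basal cells (NGFR-). Lungs of mice 4 to 6 gave alveolar cells (EpCAM+ CD104lo, and CD45- CD31- in the methods), airway CD24lo cells (EpCAM+ CD104+ CD24lo, labelled as enriched in club cells), airway CD24hi cells (EpCAM+ CD104+ CD24hi, labelled as enriched in ciliated cells) and EpCAM-negative cells, so that each population had 3 libraries and each lung library had a partner from the same mouse in every other lung gate. All 18 libraries came from bulk RNA of sorted cells, each gate can hold more than one cell type, and the tracheal and lung cells came from different mice, so organ and mouse cannot be told apart between the 2 organs. The series text names small and large airways of 6 lungs, where the sample labels give tracheas for mice 1 to 3 and lungs for mice 4 to 6, and the labels were followed. The tracheal libraries held 29317215 to 32993621 counted reads and the lung libraries 9811503 to 13208897, and no pair of replicates agreed within sampling noise.

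Alveolar type 2 (AT2) cells make pulmonary surfactant, store it in lamellar bodies and serve as progenitors of the flat alveolar type 1 (AT1) cells across which gas is exchanged. They are among the most active lipid-synthesising cells of the body, and they also secrete antimicrobial proteins such as lysozyme. The 6 genes belong to different pathways. Acoxl encodes a relative of the acyl-CoA oxidases, which carry out the initial step of peroxisomal fatty acid beta-oxidation. Hkdc1 encodes a hexokinase, one of the enzymes that trap glucose in the cell by phosphorylating it. Lyz1 encodes the lysozyme best known from intestinal Paneth cells, and its neighbour Lyz2 encodes the lysozyme of macrophages. Mlc1 encodes a membrane protein known from astrocytes, where it associates with the adhesion molecule Hepacam and the chloride channel Clcn2. Sgpp2 encodes a phosphatase that removes the phosphate of sphingosine 1-phosphate (S1P). Alkal1 encodes a secreted ligand of the receptor tyrosine kinases Alk and Ltk.

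The alveolar label was checked against AT2 markers. The summed level of 12 such markers, in RPKM (reads scaled to gene length and library size), was 188185 to 210445 in alveolar cells, 7797 to 10239 in airway CD24lo cells, 1815 to 3156 in airway CD24hi cells and 685 to 1144 in EpCAM-negative cells. Tracheal libraries summed to 974 to 1070 RPKM in non-basal cells and 140 to 163 RPKM in BSCs, but the AT2-defining gene Sftpc was at most 4.76 RPKM in any of the 6. The alveolar gate was not free of AT1 transcripts. Its 10 AT1 markers summed to 1799 to 1820 RPKM, with Ager at 1135 to 1148 RPKM. The sum was 646 to 867 RPKM in airway CD24lo cells and at most 964 RPKM in any other library. Hopx (33.7 to 48.7 RPKM) and Pdpn (4.79 to 8.43 RPKM) were lower in alveolar than in airway CD24lo cells (84.4 to 109 and 36.8 to 44.7 RPKM). By edgeR Cav1 and Clic5 were also lower in that comparison, and Ager, Akap5, Emp2 and Aqp5 higher. In alveolar cells the 8 endothelial markers summed to 57.0 to 112 RPKM, the 8 mesenchymal markers to 231 to 365 RPKM and the 12 leukocyte markers to 70.0 to 92.4 RPKM.

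In alveolar cells the 6 genes spanned a wide range of levels. Lyz1 stood at 3229 ± 777 RPKM (SD, n = 3) and ranked 15th of all tested genes by mean alveolar RPKM, Mlc1 ranked 228th and Acoxl 241st, Sgpp2 1103rd and Hkdc1 3690th, and Alkal1, at 5.00 ± 0.618 RPKM, ranked 8619th. The next highest population was airway CD24lo for each of the 6. The fitted log2 difference between these populations was 5.86 for Acoxl, 5.72 for Hkdc1, 5.59 for Lyz1, 5.55 for Mlc1 and 5.54 for Sgpp2. By this difference, which the choice of the genes rests on, they held places 9, 12, 15, 16 and 18 of all 17989 genes tested, behind genes of lower alveolar level such as Ros1 (6.67), Tmem132d (6.65) and Itih1 (6.20). Alkal1 had a log2 difference of 2.58, place 186, and a mean of 0.937 CPM (reads scaled to library size) over the 18 libraries. In these bulk libraries a higher share of cells that express a gene cannot be told apart from more of its RNA per cell.

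**Figure D1:**
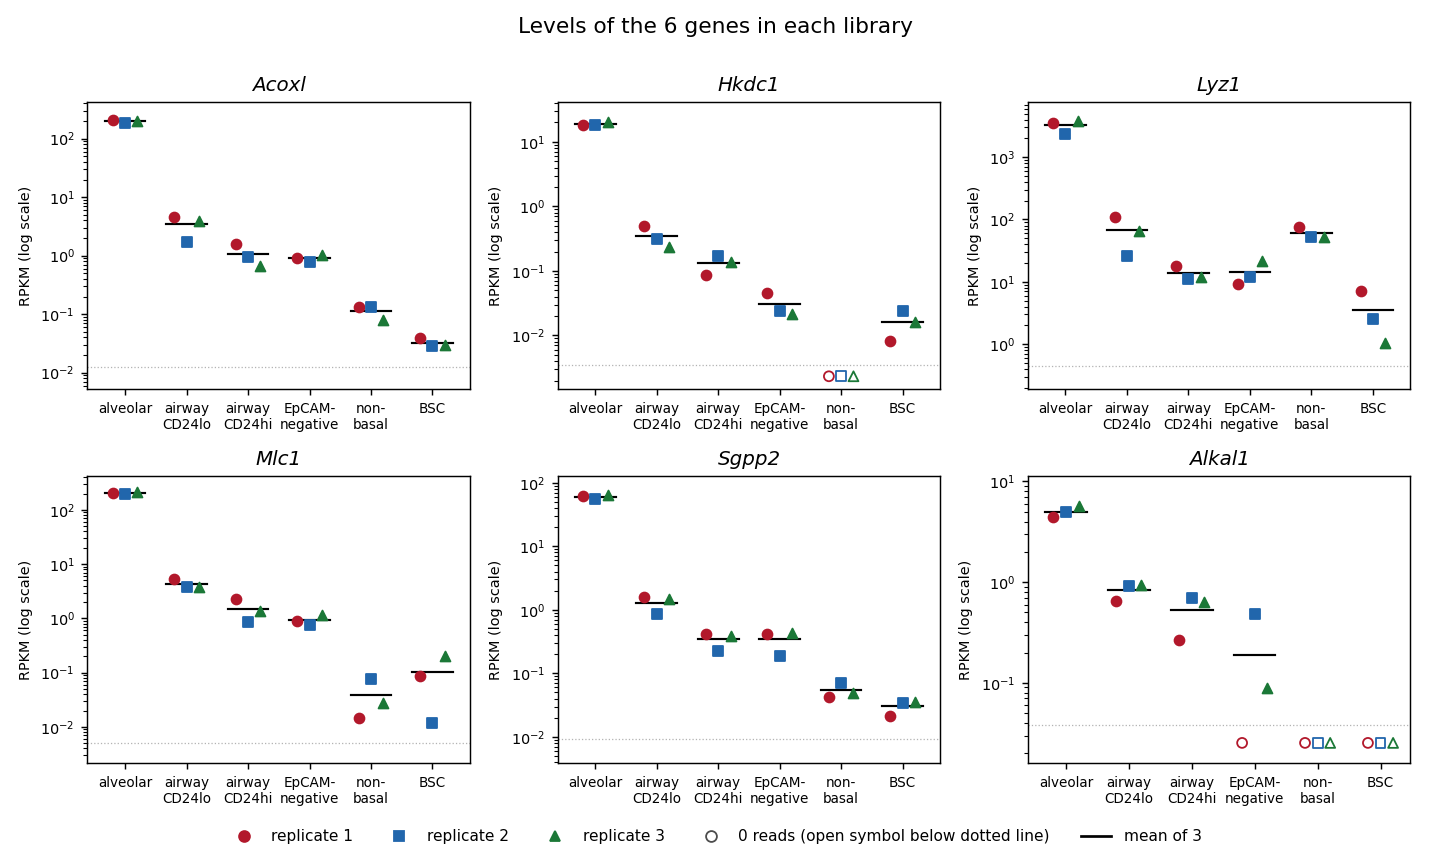
RPKM of the 6 genes in each of the 18 libraries on log axes, with colours and symbols for replicates 1 to 3 and black bars for the mean of each population; libraries with 0 reads are open symbols below the dotted line. The alveolar libraries lie above all others in every panel, the Lyz1 values of non-basal cells lie within the range of airway CD24lo cells, and Alkal1 has 0 reads in all 6 tracheal libraries.

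To set the pattern beside the sequence before the start sites, the 250 bases before each RefSeq start (build GRCm38.p6) were searched for 6 short motifs, and the 4 windows that held a match are shown. Of the 6 members 5 were matched in the RefSeq promoters, all but Alkal1. For Acoxl, Hkdc1, Mlc1 and Sgpp2 the start used lies inside the longer span that RefSeq gives for the gene. Sequences run 5′ to 3′ on the gene's strand, ending at the base before the start site, and capitals mark a match to a motif on either strand.
Acoxl, chr2:127854378-127854627 (+): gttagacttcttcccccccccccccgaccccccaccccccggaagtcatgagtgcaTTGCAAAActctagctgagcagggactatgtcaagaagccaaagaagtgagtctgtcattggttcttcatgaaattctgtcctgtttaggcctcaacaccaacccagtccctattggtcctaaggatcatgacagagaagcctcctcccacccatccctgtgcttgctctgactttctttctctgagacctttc
Mlc1, chr15:88978554-88978803 (-): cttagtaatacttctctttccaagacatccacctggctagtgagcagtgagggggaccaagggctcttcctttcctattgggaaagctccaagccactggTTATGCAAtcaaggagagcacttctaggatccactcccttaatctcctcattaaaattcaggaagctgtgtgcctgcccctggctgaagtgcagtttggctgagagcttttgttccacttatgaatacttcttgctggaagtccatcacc
Lyz1, chr10:117292869-117293118 (-): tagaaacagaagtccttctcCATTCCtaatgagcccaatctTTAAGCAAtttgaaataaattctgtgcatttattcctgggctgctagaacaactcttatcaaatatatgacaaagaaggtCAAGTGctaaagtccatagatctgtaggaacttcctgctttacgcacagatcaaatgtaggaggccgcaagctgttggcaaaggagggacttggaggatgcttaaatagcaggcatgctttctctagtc
Hkdc1, chr10:62422458-62422707 (-): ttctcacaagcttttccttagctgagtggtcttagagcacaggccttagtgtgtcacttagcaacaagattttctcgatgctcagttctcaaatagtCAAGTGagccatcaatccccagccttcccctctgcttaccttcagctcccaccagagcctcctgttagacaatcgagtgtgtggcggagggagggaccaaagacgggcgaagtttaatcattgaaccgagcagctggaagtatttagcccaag
Capitals in Acoxl and Mlc1 are the C/EBP motif TTGCNNAA, with its leftmost base at -194 and -150, and a match is also present in Lyz1 at -209. C/EBP factors are regulators of AT2 genes, and 9.56% of 32851 RefSeq promoters held these letters in the same window. The NKX2-1 motif CACTTG, one form of the E-box CANNTG, was present in Lyz1 at -129 and in Hkdc1 at -153, and in 11.6% of all promoters. Lyz1 also held the TEAD motif GGAATG at -230, found in 12.6% of promoters. None of the 5 windows held the TATA box TATAAA, the FOXA motif TGTTTNC or the Grainyhead motif AACCNGTT, which 12.4%, 17.8% and 1.79% of promoters held, and the window of Sgpp2 held none of the 6 motifs. The Sgpp2 window differed in composition, with 70.8% G or C and 24 CG dinucleotides against 41.2% to 52.0% and 0 to 6 in the other 4, and against medians of 52.4% and 6.0 over all promoters. A match describes the letters in the window and was not tested as a binding site.

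Acoxl (Entrez 74121, chr2:127838797-128126252 on the + strand of GRCm38, 18 exons) was abundant in alveolar cells and fell away over the other populations in steps. Its level was 211, 188 and 198 RPKM in alveolar replicates 1 to 3, from 6849, 5841 and 5606 reads. In airway CD24lo cells it was 4.57, 1.72 and 3.98 RPKM. Airway CD24hi cells held 1.61, 0.932 and 0.660 RPKM and EpCAM-negative cells 0.926, 0.779 and 1.04 RPKM. These last 2 populations overlapped, whereas each CD24lo library lay above them all. In the trachea Acoxl was close to its detection limit, with 11, 11 and 7 reads in non-basal cells and 4, 3 and 3 reads in BSCs.

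Other acyl-CoA oxidases had other patterns. Acox2, the oxidase for branched-chain substrates and bile acid intermediates, was highest in airway CD24hi cells at 86.7, 74.7 and 80.8 RPKM, reached 14.6 to 24.2 RPKM in CD24lo cells, and was 0.423 to 0.704 RPKM in alveolar cells and 0.157 to 0.214 RPKM in EpCAM-negative cells. The alveolar level was lower than in CD24lo cells by edgeR (log2 difference -4.89 ± 0.219, adjusted p = 3.96e-12). Acox3, also a branched-chain oxidase, varied little, from 7.42 to 13.3 RPKM over all 18 libraries. So in alveolar cells the level of Acoxl per length was above that of Acox2 and Acox3, and in every other population it was below that of Acox3.

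Of the 14 other genes of peroxisomal beta-oxidation, 8 were higher and 3 lower in alveolar than in airway CD24lo cells by edgeR, against 24.2% and 24.0% of all genes tested. Their median log2 difference was 0.29, beside -0.03 for all genes. Abcd3, a half-transporter that brings acyl-CoAs into peroxisomes, was 184, 167 and 174 RPKM in alveolar cells and 38.1, 44.0 and 44.3 RPKM in CD24lo cells. Scp2, the peroxisomal thiolase and lipid transfer protein, was 98.6, 93.0 and 103 RPKM in alveolar cells against 35.8, 41.5 and 40.8 RPKM. Both sets of libraries stood apart, with log2 differences of 2.05 ± 0.112 and 1.32 ± 0.109 (SE; edgeR adjusted p = 5.24e-11 and 1.43e-08). Cat, the catalase that removes the peroxide made by the oxidases, was 361 to 391 RPKM in alveolar and 260 to 318 RPKM in CD24lo cells, a smaller difference of 0.35 ± 0.096. The 3 lower genes were Acox2, the thiolase Acaa1b and the carnitine octanoyltransferase Crot.

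Hkdc1 (Entrez 216019, chr10:62383137-62423711 on the - strand, 18 exons) was lower in absolute terms. It was 18.9 ± 1.54 RPKM (SD, n = 3) in alveolar cells, from 712, 681 and 713 reads. Airway CD24lo cells held 0.502, 0.310 and 0.231 RPKM, airway CD24hi cells 0.0867, 0.170 and 0.135 RPKM, and EpCAM-negative cells 2, 1 and 1 reads. Each of the 3 lung populations was thus separate from the next in its range. No read was counted in any of the 3 non-basal libraries, which with a floor of 3 reads over the group puts Hkdc1 at least 1942-fold lower there than in alveolar cells, and BSCs had 1, 3 and 2 reads. Floors and counting intervals cover counting error only.

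The other hexokinases did not follow Hkdc1. Hk1, the broadly expressed hexokinase, was highest in the trachea, at 44.8 to 51.8 RPKM, and 13.2 to 15.4 RPKM in alveolar cells. Hk2, the inducible form, was 13.1, 14.9 and 15.5 RPKM in alveolar cells, so that Hkdc1 had a higher level per length than Hk1, Hk2 and Hk3 in each alveolar library. Hk3, the hexokinase of leukocytes, did not exceed 0.880 RPKM in any library. Over 19 genes of glucose uptake and glycolysis, 4 were higher, 6 lower and 9 not called in alveolar against airway CD24lo cells, with a median log2 difference of -0.23, where 24.2% of all genes were higher and 24.0% lower. Among them the glucose transporter Slc2a1 was 8.94 to 10.8 RPKM in alveolar and 22.7 to 28.7 RPKM in CD24lo cells. Gapdh was 2.54 to 8.37 RPKM and Pgk1 1.07 to 3.11 RPKM in all libraries, far below Aldoa at 139 to 422 RPKM. Both have similar copies in the mouse genome, and the effect of these on the counts was not tested, so their counts are uncertain. The tally of the 19 genes includes both, Pgk1 as lower (log2 difference -0.89, edgeR adjusted p = 0.00153) and Gapdh as not called.

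Lyz1 (Entrez 17110, chr10:117287795-117292868 on the - strand, 4 exons) had the highest level of the 6 and the widest spread between alveolar replicates. It was 3506, 2351 and 3829 RPKM in alveolar cells and 109, 26.3 and 65.7 RPKM in airway CD24lo cells. Non-basal tracheal cells held 76.0, 52.1 and 53.3 RPKM, inside the range of the CD24lo libraries. Airway CD24hi cells held 18.1, 11.1 and 12.1 RPKM and EpCAM-negative cells 9.33, 12.1 and 21.7 RPKM, 2 ranges that overlap, and BSCs were lowest at 7.01, 2.53 and 1.05 RPKM. Lyz1 was thus the 1 gene of the 6 with many assigned reads in the trachea, where the other 5 had at most 17 reads in any library, with the limit that its reads resemble those of the far more abundant Lyz2.

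Lyz2 (Entrez 17105, chr10:117277541-117282272) lies beside Lyz1 on the same strand and was higher than it in every library. Lyz2 was 41892, 36527 and 44259 RPKM in alveolar cells and 9042, 6577 and 6390 RPKM in non-basal cells. The latter libraries were next highest for Lyz2, above the CD24lo libraries at 853 to 1508 RPKM. Airway CD24hi cells (275 to 390 RPKM), EpCAM-negative cells (214 to 294 RPKM) and BSCs (292 to 595 RPKM) were lower still. As a share of the Lyz2 level, per length, Lyz1 was 6.44% to 8.65% in alveolar cells, 3.09% to 7.22% in airway CD24lo cells, 3.84% to 4.65% in airway CD24hi cells and 4.26% to 7.40% in EpCAM-negative cells. In the trachea the share was 0.792% to 0.841% in non-basal cells and 0.359% to 1.18% in BSCs, below that of every lung library. Macrophages make lysozyme, and the study's methods define alveolar cells as negative for the leukocyte marker CD45 and the endothelial marker CD31, while those for tracheal cells name no CD45 stain. The 12 leukocyte markers, summed beside the lysozyme values, came to 246 to 286 RPKM in non-basal cells against 70.0 to 92.4 RPKM in alveolar cells. Most of that sum was Cd14 (228 to 259 RPKM in non-basal cells), while the other markers were low and did not all move one way. Marco had no read in the trachea and was at most 0.305 RPKM in alveolar cells. In BSCs Adgre1 was 1.51 to 1.86 RPKM and Csf1r 3.90 to 5.22 RPKM, against 0.0933 to 0.369 and 1.43 to 2.40 RPKM in alveolar cells. Between alveolar and non-basal cells neither was called by edgeR (log2 differences -0.95, adjusted p = 0.0892, and -0.44, adjusted p = 0.144). There Chil3 (5.96, edgeR adjusted p = 1.53e-06), Marco and Cd68 were higher in alveolar cells, and Cd14 and Itgax lower. The part of leukocytes in the lysozyme levels was not tested.

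**Figure D2:**
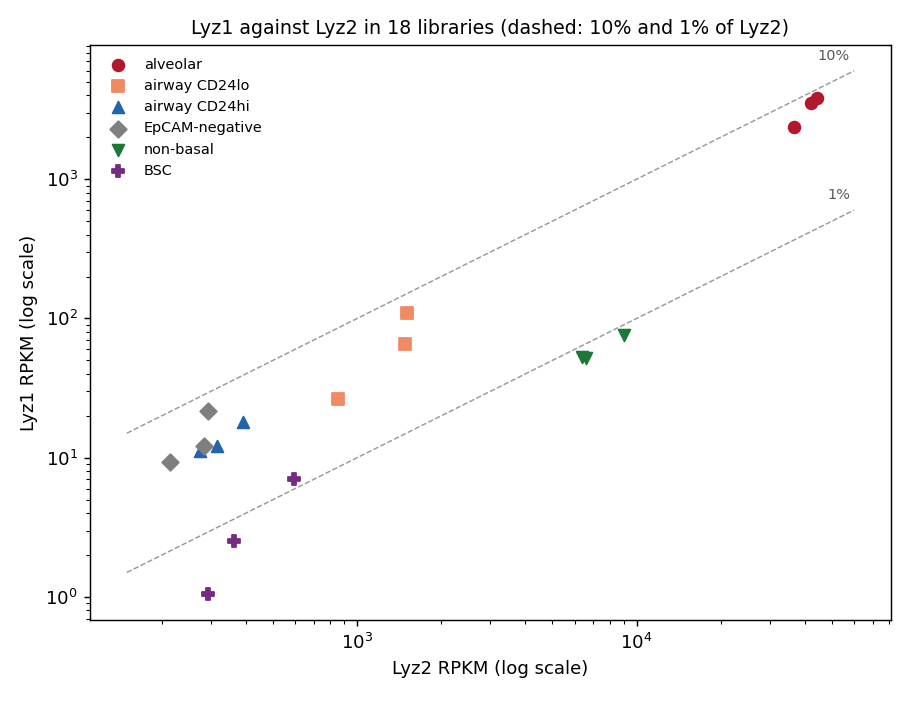
Lyz1 against Lyz2 in RPKM on log axes for all 18 libraries, with dashed lines where Lyz1 is 10% and 1% of Lyz2. The lung libraries, at 3.09% to 8.65%, lie between the lines and the 3 non-basal libraries, at 0.792% to 0.841%, just below the lower line.

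Since reads of such similar genes can be confused, a stretch of both coding sequences is shown. They were read from the GENCODE vM21 transcripts on the same build, from base 1 to base 240 of the coding sequence, with capitals for the bases that differ between the genes.
Lyz1: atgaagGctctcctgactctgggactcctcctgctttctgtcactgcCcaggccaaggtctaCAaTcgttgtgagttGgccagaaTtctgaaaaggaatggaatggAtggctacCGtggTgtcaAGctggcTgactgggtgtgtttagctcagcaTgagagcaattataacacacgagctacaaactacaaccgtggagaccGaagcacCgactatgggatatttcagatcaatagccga
Lyz2: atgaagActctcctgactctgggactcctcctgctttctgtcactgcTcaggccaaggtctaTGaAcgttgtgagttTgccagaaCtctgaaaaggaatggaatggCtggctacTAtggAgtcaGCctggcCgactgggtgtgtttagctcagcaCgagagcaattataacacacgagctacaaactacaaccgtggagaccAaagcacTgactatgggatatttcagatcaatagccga
The stretch held 17 of the 22 bases that differ over the 447 coding bases, which are 95.1% identical. Of the 1164 windows of 100 bases, the read length, along the Lyz1 transcript, 24 were also present in the Lyz2 transcript without a difference and 40.6% matched it with at most 3 differences. How reads with several matches were counted is not given in the sources used here. The counts of Lyz1 and Lyz2 are therefore uncertain by an amount that was not measured. Of 9 lysozyme and lysozyme-like genes beside Lyz1, 3 passed the filter, namely Lyz2, Spaca3 and Lyzl4. Lyzl4 was 3.73 to 5.15 RPKM in non-basal cells, 2.77 to 2.87 RPKM in CD24lo cells and without a read in alveolar cells.

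Mlc1 (Entrez 170790, chr15:88955884-88982693 on the - strand, 12 exons) varied least between alveolar replicates, at 206, 196 and 210 RPKM. It was 5.34, 3.84 and 3.81 RPKM in airway CD24lo cells, 2.27, 0.859 and 1.35 RPKM in airway CD24hi cells and 0.896, 0.744 and 1.14 RPKM in EpCAM-negative cells. The CD24lo libraries lay above both other gates, which overlapped. Non-basal cells had 1, 5 and 2 reads and BSCs 7, 1 and 17 reads, so a single BSC library held most of the tracheal reads.

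Of the partners of Mlc1 in astrocytes, Hepacam, Clcn2 and Aqp4 were far below Mlc1 in level per length in alveolar cells. Hepacam was 4.96, 3.63 and 4.18 RPKM there and was highest in airway CD24hi cells at 11.4, 10.2 and 9.04 RPKM. By edgeR its alveolar level was below the CD24hi level (log2 difference -1.26 ± 0.253, adjusted p = 0.000296) and above the CD24lo level (1.42 ± 0.286, adjusted p = 0.000476). Clcn2 had its lowest values of all in alveolar cells, 1.77 to 2.02 RPKM, against 2.78 to 4.64 RPKM elsewhere. Aqp4, the astrocyte water channel, was at 0.104, 0.199 and 0.119 RPKM in alveolar cells but at 69.8 to 79.0 RPKM in BSCs. Of 11 partner genes 4 were higher and 6 lower in alveolar than in CD24lo cells, where 24.2% and 24.0% of all genes were. The higher ones were Hepacam, the gap junction gene Gja1, the dystroglycan gene Dag1 and the sodium pump subunit Atp1b1. Gja1, at 81.8, 86.9 and 90.9 RPKM in alveolar cells, was like Mlc1 highest there, above each of the other 5 populations by edgeR (log2 differences of 1.49 to 3.61, adjusted p of 0.000141 or less).

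Sgpp2 (Entrez 433323, chr1:78309549-78420289 on the + strand, 5 exons) was 62.0, 55.4 and 63.5 RPKM in alveolar cells and 1.57, 0.860 and 1.47 RPKM in airway CD24lo cells. Airway CD24hi cells (0.415, 0.222 and 0.393 RPKM) and EpCAM-negative cells (0.422, 0.186 and 0.438 RPKM) could not be separated. In the trachea it had 5 to 8 reads in non-basal cells and 3 to 5 reads in BSCs. Of its exonic bases, 6.20% overlap Farsb, a gene on the other strand, and whether strand was used in counting is not given.

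The second phosphatase, Sgpp1, was present everywhere, with an alveolar level of 13.8 ± 0.764 RPKM (SD, n = 3) against 16.6, 32.0 and 36.0 RPKM in airway CD24hi cells. Sgpp2 was thus the higher of the S1P phosphatases in alveolar cells and the lower in every other population. The lyase Sgpl1, which degrades S1P irreversibly, was 18.3 to 18.7 RPKM in alveolar and 18.9 to 23.0 RPKM in CD24lo cells. Sphk1, a kinase that makes S1P, was 1.80, 2.52 and 1.58 RPKM in alveolar cells against 16.2, 28.3 and 19.0 RPKM in CD24lo cells, a log2 difference of -3.42 ± 0.237 (SE; edgeR adjusted p = 1.64e-09), while the other kinase, Sphk2, was 14.3 to 15.2 and 13.3 to 14.8 RPKM. Of the 22 other tested genes of the S1P pathway, 7 were higher, 4 lower and 11 not called in alveolar against CD24lo cells, near the 24.2% and 24.0% of all genes. The higher ones included the ceramide synthases Cers2, Cers4 and Cers5, the acid ceramidase Asah1 (94.1, 93.7 and 104 RPKM in alveolar cells) and the receptors S1pr2 and S1pr3. The lower ones were Sphk1, the S1P exporter Spns2, the lipid phosphatase Plpp3 and the receptor S1pr1.

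Alkal1 (Entrez 620393, chr1:6359331-6394731 on the + strand, 5 exons) was read so rarely that single reads matter. It had 43, 46 and 48 reads in alveolar cells (4.42, 4.93 and 5.65 RPKM), 6, 8 and 7 reads in airway CD24lo cells (0.644, 0.916 and 0.939 RPKM), 3, 8 and 7 reads in airway CD24hi cells (0.264, 0.691 and 0.642 RPKM) and 0, 5 and 1 reads in EpCAM-negative cells. The airway gates overlapped, and EpCAM-negative replicate 2 lay within the CD24hi range. No tracheal library held a read, although these libraries were the deepest. With a floor of 3 reads over each group, Alkal1 was at least 127-fold lower in non-basal cells and at least 153-fold lower in BSCs than in alveolar cells.

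The receptors for this ligand were not highest where the ligand was. Ltk was highest in airway CD24hi cells at 14.4, 11.8 and 11.7 RPKM, followed by CD24lo cells at 4.20, 3.38 and 3.13 RPKM, and was 1.65, 1.15 and 1.29 RPKM in alveolar cells. The alveolar level was below the CD24hi level by edgeR (log2 difference -3.20 ± 0.198, adjusted p = 1.09e-10). Alk did not exceed 0.0383 RPKM in any library and did not pass the filter. Alkal2, the other ligand, had no read in alveolar cells and was 1.01, 1.21 and 1.41 RPKM in EpCAM-negative cells. The growth factors Ptn and Mdk and the receptor phosphatase Ptprz1, also linked to Alk, were lower in alveolar than in CD24lo cells, and of the 5 genes tested beside Alkal1 none was higher and 4 were lower, where 24.2% and 24.0% of all genes were.

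**Figure D3:**
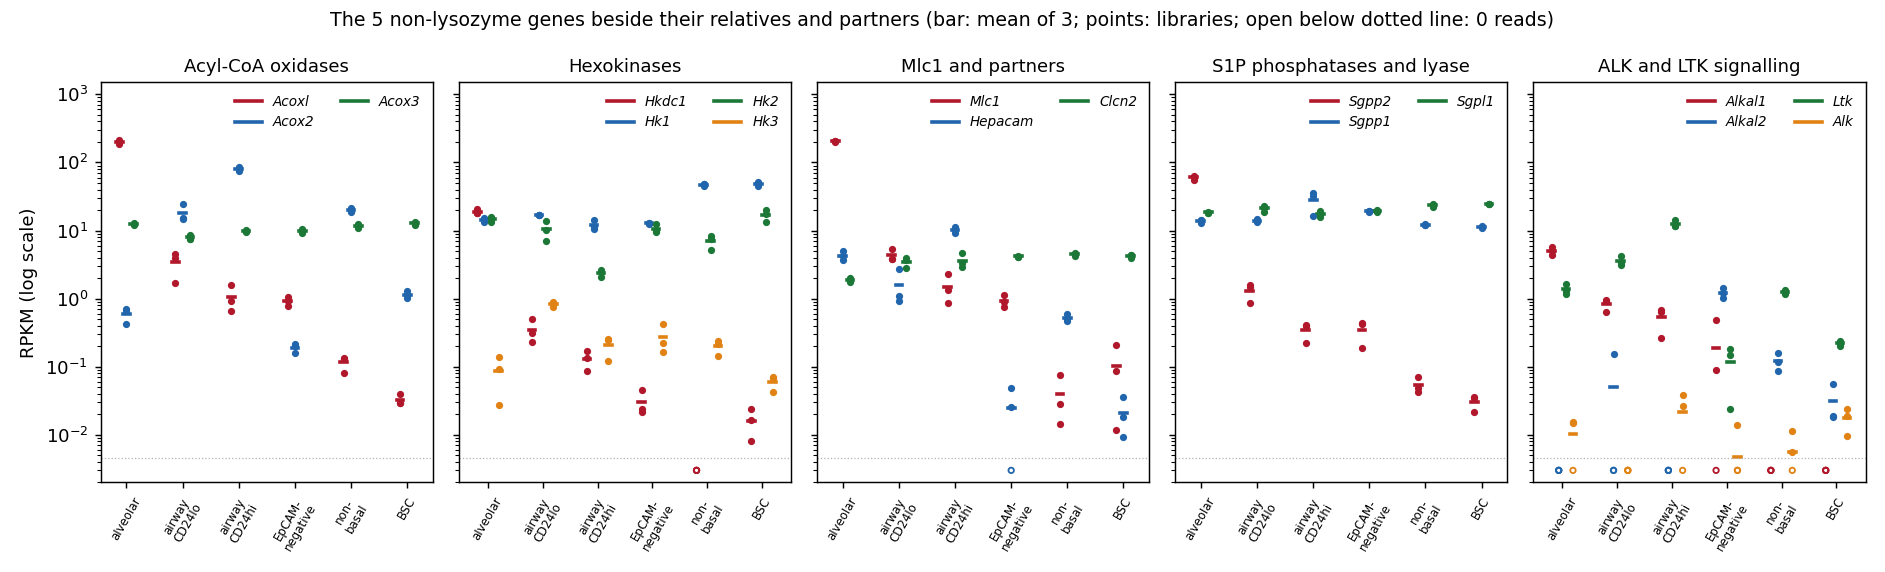
RPKM on a shared log axis for 5 of the genes (red) beside paralogues and partners, with a point for each library and a bar for the mean of 3; open points below the dotted line are libraries with 0 reads. Acoxl, Hkdc1, Mlc1, Sgpp2 and Alkal1 each lead their panel in alveolar cells, and Acox2, Hepacam and Ltk each peak in airway CD24hi cells.

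Outside the alveolar libraries the genes had their highest mean in airway CD24lo cells, which for Lyz1 rested on CD24lo replicate 1, since without it the log2 difference from non-basal cells was -0.40. In airway CD24lo against airway CD24hi cells 5 of the 6 genes were higher and 1 was not called by edgeR's quasi-likelihood test with Benjamini-Hochberg adjustment, where 27.1% of all genes were called higher. Lyz1 had a log2 difference of 2.28 ± 0.541 (SE), Sgpp2 of 1.91 ± 0.269, Acoxl of 1.67 ± 0.301, Mlc1 of 1.54 ± 0.317 and Hkdc1 of 1.43 ± 0.344, with adjusted p between 8.26e-06 and 0.00225. For Alkal1 it was 0.63 ± 0.572 (adjusted p = 0.379). The difference of Hkdc1 was not called without CD24lo replicate 1, at 1.05 with an adjusted p of 0.0535. AT2 markers moved the same way, 12 of 12 being higher with a median of 1.90.

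Against EpCAM-negative cells all 6 genes were higher in airway CD24lo cells, where 31.3% of all genes were. The log2 differences were 3.46 ± 0.470 for Hkdc1, 2.22 ± 0.343 for Mlc1, 2.22 ± 0.540 for Lyz1, 1.90 ± 0.310 for Acoxl and 1.88 ± 0.270 for Sgpp2. Alkal1 differed by 2.11 ± 0.703 (edgeR adjusted p = 0.0181), and this call was lost without EpCAM-negative replicate 1 (1.54, adjusted p = 0.0561) or replicate 3 (1.80, adjusted p = 0.0609), while without replicate 2 the difference was 3.96. Again 12 of 12 AT2 markers were higher in CD24lo cells, with a median of 2.89. The part of AT2 cells or their RNA in these gates was not tested.

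Fewer differences were called between airway CD24hi and EpCAM-negative cells. In this comparison 1 of the 6 genes, Hkdc1, was higher in CD24hi cells, with a log2 difference of 2.04 ± 0.559 (edgeR adjusted p = 0.00448), although 35.6% of all genes were higher and 36.6% lower. Acoxl differed by 0.22 ± 0.347, Lyz1 by -0.06 ± 0.541 and Sgpp2 by -0.04 ± 0.325, none of them beyond the spread, and the sign of each of these 3 depended on the libraries or scaling used. Mlc1 differed by 0.68 ± 0.380 (adjusted p = 0.121) and was called without CD24hi replicate 2 (0.96, adjusted p = 0.0294). Alkal1 differed by 1.48 ± 0.729 (adjusted p = 0.0840), and was called without CD24hi replicate 1 (1.80, adjusted p = 0.0416) or without EpCAM-negative replicate 2 (3.34, adjusted p = 0.00526). Of the 12 AT2 markers 9 were higher and 1 lower in CD24hi cells, with a median of 1.46. A difference that misses the threshold does not show that the levels are alike.

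The trachea set Lyz1 apart from the other genes, with the limit that its reads resemble those of the more abundant Lyz2. Airway CD24lo cells were higher than non-basal cells for 5 genes, where 27.7% of all genes were higher, with log2 differences of 6.70 ± 0.488 for Mlc1 (7.48 without non-basal replicate 2), 4.87 ± 0.371 for Acoxl and 4.55 ± 0.316 for Sgpp2. Hkdc1 and Alkal1 had no read in non-basal cells and were at least 35.8-fold and at least 21.1-fold lower there. Lyz1, in contrast, differed by 0.15 ± 0.502 between CD24lo and non-basal cells (edgeR adjusted p = 0.827), and without CD24lo replicate 1 the value was -0.40. In the same comparison Lyz2 was lower in CD24lo cells (log2 difference -2.52 ± 0.268, edgeR adjusted p = 5.26e-07). Airway CD24hi against non-basal cells gave a log2 difference of -2.13 ± 0.535 for Lyz1 (adjusted p = 0.00204), the 1 gene so called beside 5 higher, where 31.4% of all genes were lower and 36.9% higher. In EpCAM-negative against non-basal cells Lyz1 was again the 1 gene lower (log2 difference -2.07 ± 0.534, adjusted p = 0.00236), where 35.5% of all genes were. The other 5 were higher there, as were 35.9% of all genes, but Hkdc1, with 4 reads against 0 in all, is given no fold. Alkal1 in that last comparison rested on EpCAM-negative replicate 2, without which the adjusted p was 0.114. Club cell markers stood at 243046 to 251254 summed RPKM in non-basal cells and 509987 to 717119 in CD24lo cells, beside 75479 to 99691 in CD24hi cells, and their part in the Lyz1 levels was not tested.

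Against BSCs, all 6 genes were higher in airway CD24lo cells, where 34.7% of all genes were. The log2 differences were 6.61 ± 0.434 for Acoxl, 5.39 ± 0.405 for Mlc1, 5.34 ± 0.333 for Sgpp2, 4.31 ± 0.407 for Hkdc1 and 4.24 ± 0.586 for Lyz1, and Alkal1, without a read in BSCs, was at least 25.4-fold lower there. Single BSC libraries moved some of these values, with Mlc1 at 6.41 without BSC replicate 3 and Lyz1 at 5.22 without BSC replicate 1. All 6 were also higher in airway CD24hi cells than in BSCs, where 39.3% of all genes were, and the log2 difference of Lyz1, the smallest of those measured, was 1.96 ± 0.561 (2.94 without BSC replicate 1). In EpCAM-negative cells against BSCs 5 were higher, where 36.5% were, and Hkdc1 had at most 3 reads in any library of either. Lyz1 in the last comparison differed by 2.03 ± 0.561 (edgeR adjusted p = 0.00404) and by 3.00 without BSC replicate 1, but in a fit to the 6 libraries compared, at 2.02, the adjusted p was 0.0628. The value of Alkal1 depended again on EpCAM-negative replicate 2, without which the adjusted p was 0.0983.

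Between the tracheal populations of the same mice, Lyz1 was higher in non-basal cells than in BSCs by a log2 difference of 4.10 ± 0.580 (edgeR adjusted p = 1.80e-05), or 5.07 without BSC replicate 1, where 26.2% of all genes were higher. Lyz2 had nearly the same difference there, 4.14 ± 0.288 (edgeR adjusted p = 2.8e-09). The part of Lyz2 reads in the tracheal Lyz1 counts was not tested. Acoxl differed by 1.74 ± 0.703 on 29 against 10 reads in all, with an adjusted p of 0.0513. In a fit to the 6 libraries compared its adjusted p was 0.00572, or 0.00719 with the mouse as a block as well, and without non-basal replicate 3 it was 0.0436. Mlc1 differed by -1.31 ± 0.837 (adjusted p = 0.214), and without single libraries it ranged from -0.29 without BSC replicate 3 (adjusted p = 0.838) through -1.83 without BSC replicate 2 (adjusted p = 0.0456) to -2.08 without non-basal replicate 2 (adjusted p = 0.133), and Sgpp2 by 0.79 ± 0.534 (adjusted p = 0.243). Hkdc1 and Alkal1 had at most 3 reads in any of these libraries, so no fold is given for them, although 0 against 6 reads in all put Hkdc1 past the threshold as lower in non-basal cells, where 21.9% of all genes were lower.

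**Figure D4:**
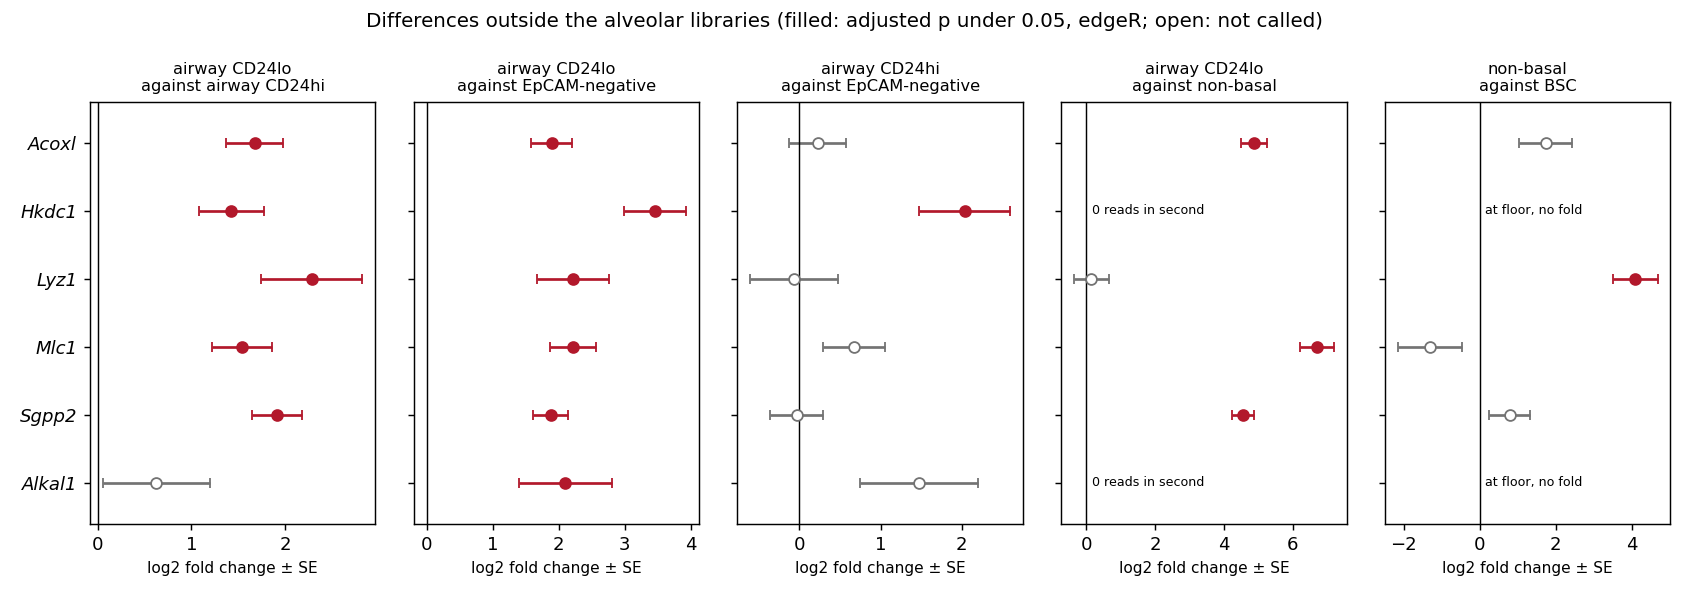
Log2 fold change with its standard error for the 6 genes in 5 comparisons among the non-alveolar populations; filled red points have an edgeR adjusted p under 0.05 and open points do not; genes without a fold had 0 reads in the second population or at most 3 reads in any library of either. All 6 genes lie to the right of 0 for airway CD24lo against EpCAM-negative cells, and for airway CD24lo against non-basal cells Lyz1 lies at 0.15 while the others measured lie above 4.

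Since the lung gates came from the same mice, each gene's level was also expressed as a share of the alveolar library of the same mouse. In airway CD24lo cells the share was 0.913% to 2.17% for Acoxl, 1.12% to 2.79% for Hkdc1, 1.12% to 3.10% for Lyz1, 1.81% to 2.59% for Mlc1 and 1.55% to 2.53% for Sgpp2. These shares restate the difference on which the genes were chosen, so their low level and closeness are a description only. The AT2 markers Sftpc (1.80% to 3.80%), Lamp3 (1.66% to 2.97%) and Napsa (1.83% to 3.19%) had ranges that overlap theirs. Other AT2 markers kept more of their level in the CD24lo gate, such as Abca3 (13.8% to 17.9%), Sftpd (17.7% to 23.3%) and Sftpb (12.1% to 16.3%), and the epithelial transcription factor Nkx2-1 kept 41.1% to 48.3%. Alkal1 had shares of 14.6%, 18.6% and 16.6%. Its 95% counting intervals (exact binomial, on the reads of both libraries) were wide, from 5.07% to 34.4%, 7.56% to 39.7% and 6.35% to 37.0%.

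The replicates of the CD24lo gate were not equal. Replicate 1 had the highest share for Acoxl, Hkdc1, Lyz1, Mlc1 and Sgpp2, and also for the AT2 markers Sftpc, Napsa, Slc34a2 and Etv5. Replicate 2 had the lowest for Acoxl, Lyz1, Sgpp2, Sftpc, Napsa, Slc34a2 and Lamp3. Endothelial markers, which do not belong to any epithelial gate, summed to 139 to 347 RPKM over the same 3 libraries, and Pecam1 was 72.7 RPKM in replicate 1 against 25.2 and 23.7 RPKM in the others. Alkal1 and the AT2 markers Sftpb, Sftpa1, Sftpd, Abca3, Lpcat1 and Cxcl15 had their lowest share in replicate 1.

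In airway CD24hi cells the shares of the same 5 genes were 0.315% to 1.10%, with Sftpc at 0.507% to 1.22% and Lamp3 at 0.556% to 0.736%. Other AT2 markers had higher shares there, such as Sftpb (2.53% to 3.67%), Sftpd (4.07% to 5.31%), Abca3 (9.79% to 11.96%) and Nkx2-1 (35.2% to 37.0%). In EpCAM-negative cells they were 0.106% to 0.690%, with Hkdc1 lowest, and Sftpc was 0.330% to 0.509%, Lpcat1 1.93% to 2.33% and Abca3 2.85% to 3.10%. Alkal1 had shares of 5.97%, 14.0% and 11.4% in CD24hi cells and of 0%, 9.75% and 1.57% in EpCAM-negative cells. The intervals of EpCAM-negative replicates 1 and 3 reached up to 8.16% and 9.19%.

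**Figure D5:**
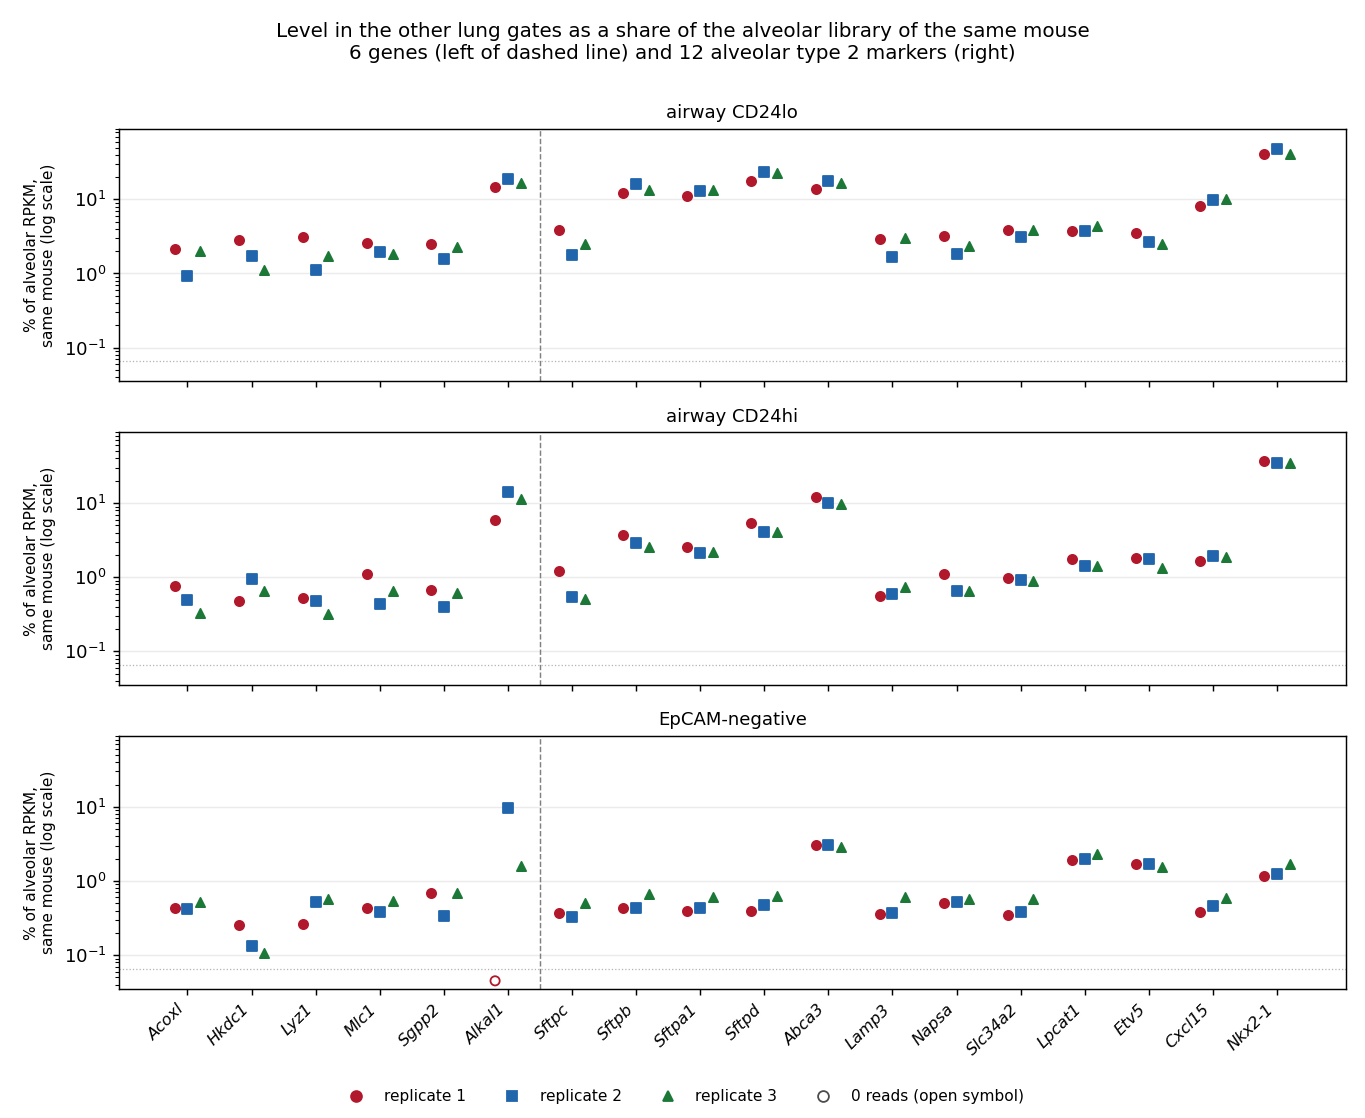
Level in each of the other 3 lung gates as a percentage of the alveolar library of the same mouse, on log axes, for the 6 genes (left of the dashed line) and 12 AT2 markers (right), with a symbol for each replicate. In airway CD24lo cells Acoxl, Hkdc1, Lyz1, Mlc1 and Sgpp2 lie between 0.913% and 3.10%, and Alkal1 lies between 14.6% and 18.6%; low shares here follow from how the genes were chosen.

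The genes whose profiles were most like those of the 6 were found by Pearson correlation of log2 CPM over the 18 libraries, which share 6 populations and so are not independent points. Since the alveolar libraries that chose the genes enter the correlation, genes with a similar alveolar excess are near by construction. Acoxl and Sgpp2 were among each other's nearest genes (r = 0.99), Sgpp2 being nearest to Tinag (0.99) and Acoxl next to Cox6a2 (0.99). Mlc1 was nearest to the cadherin gene Cdh16 (0.99) and the endocytic receptor gene Lrp2 (0.99), and Hkdc1 to Tgm4, Rbpjl and Pla2g4f (all 0.98). For Alkal1, Cdh16 (0.97) and Prmt8 (0.96) were among the nearest 3. Lyz1 had other neighbours, Bex4 and Ramp1 (both 0.97). Among the 15 libraries without alveolar cells, Acoxl and Sgpp2 had an r of 0.97, Mlc1 and Sgpp2 of 0.95 and Acoxl and Mlc1 of 0.94. The pairs of Hkdc1 or Alkal1 with these genes and with each other had values of 0.79 to 0.87. Lyz1 had values of 0.26 to 0.50 with the other 5. These libraries span both organs, and all genes but Lyz1 had few tracheal reads, so the values include the difference between organs.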

How the data were processed

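RNA of FACS-sorted cells from 6 mice (18 libraries, 6 populations of 3) was sequenced as single-end reads of 100 bases. Per the labels and methods, the authors aligned reads to mm10 with Rsubread and assigned them to Entrez genes with featureCounts and its built-in RefSeq annotation; bcl2fastq 1.8.4 is named in the submitters' processing notes. The deposited values are raw counts per gene, and the gene length, another deposited value, was used for RPKM. A further table of the whole series holds the same counts and was not used.

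From the counts, only genes over 0.2 CPM in 3 or more libraries were tested, library sizes were scaled by TMM and all 18 libraries were fitted with edgeR 4.0.16 (quasi-likelihood test, R 4.3.3), with Benjamini-Hochberg adjustment over 17989 genes and a threshold of 0.05. RPKM used TMM-scaled library sizes. Correlations used log2 CPM with a prior count of 2. Symbols and gene positions came from the GRCm38.p6 RefSeq table (25275 genes matched), and strands, exons and transcripts from GENCODE vM21. The fits were tested on simulated data. Values of some list genes are not reported here.

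The members and lists were chosen with earlier results of these data known. The genes named are the members, their paralogues, receptors and partners, up to 4 further genes of each pathway list with the highest mean alveolar RPKM, marker genes and the 3 genes most alike to each member; Ros1, Tmem132d and Itih1 in the order of differences were named after their values were seen, as were Slc2a1, Gapdh, Pgk1, Lyzl4, Aqp4, Sgpl1, Sphk1, Sphk2 and the list genes named as higher or lower outside this rule. Comparisons of alveolar cells with other populations, for genes that are no member, were added after seeing the data. The same replicate number marks the same mouse within an organ, by the labels; deviations of same-numbered libraries correlated at 0.12 to 0.34 in the trachea and at -0.06 to 0.28 between the lung gates tested. By the labels, trachea and lung numbers are different mice. Alternatives were limma voom 3.58.1, DESeq2 1.42.0, other scaling and filters, smaller fits, a replicate block and leaving out each library.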

Additional observations from a re-analysis of the deposited data

How the results depend on the processing

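Scaling by library size alone shifted all log2 differences between 2 populations by up to 0.41 against TMM, the largest shift being alveolar cells against BSCs. Of 56 member results among the non-alveolar populations, 43 kept direction and call in every setting and 52 kept direction; 4 more were left out because no library of either group had over 3 reads. All changes of direction were of differences that had not been called. The log2 difference of Lyz1 between airway CD24lo and non-basal cells was -0.052 by limma voom and -0.40 to 0.54 with a library left out. With the replicate block, which pairs different mice in this comparison, the log2 difference was -0.021. For Sgpp2 in airway CD24hi against EpCAM-negative cells it was 0.0086 by limma voom, 0.10 with library size alone, 0.082 in the 6 libraries compared, 0.11 with the replicate block, and -0.33 to 0.21 with a library left out. For Lyz1 in that comparison it was 0.074 with library size alone, 0.036 in the 6 libraries, 0.10 with the replicate block, and -0.31 to 0.40 with a library left out. Acoxl there was -0.19 to 0.47 with a library left out. The cause was not tested.

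The replicate block pairs libraries of the same mouse within an organ. It was fitted to the 6 libraries compared. Acoxl in non-basal cells against BSCs was called in those 6 libraries without the block (1.78, edgeR adjusted p = 0.00572) and with it (1.78, 0.00719), as by DESeq2 (0.00703), with RLE factors (0.0442) and above 1 CPM (0.0472). No other call within an organ changed with the block; between organs, where numbers are different mice, the Lyz1 call in EpCAM-negative cells against BSCs had an adjusted p of 0.181. Alkal1 in airway CD24hi against EpCAM-negative cells was called by limma voom (1.86, adjusted p = 0.0105). The log2 difference of Acoxl between alveolar and airway CD24lo cells was 5.97 by limma voom. All 140 counts of genes differing under alternative settings stayed within 1.5 times of the main count, and 1 fit could give several of these counts. Depth limits Alkal1 and all members in the trachea except Lyz1.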
